A study of Canis lupus familiaris with 8 samples.

Results

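The genes described here encode the ligands of the epidermal growth factor receptor (EGFR): HBEGF, EREG, AREG, TGFA, EGF and BTC. They were taken by symbol from a table of exon read counts, where all 6 were found among 37952 genes. The cells were MDCK GII, an established epithelial line from dog kidney, cultured as a monolayer on collagen-coated silicone membranes in 6-well stretch devices. Of the 8 wells, 4 were controls and 4 were held at 18% equi-biaxial static strain for 2 hours before lysis, and the replicates of each group carry the numbers 1 to 4. The labels describe the wells of a group as technical quadruplets divided at random over separate devices and name no genetic change in any of them. The p-values below therefore measure the spread between wells of 1 line. The question put by the comparison is whether the transcripts of the ligands, whose shedding is named in the title of the series, changed within the period of strain.

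EGFR ligands are made as transmembrane precursors. ADAM metalloproteases cut the precursor at the cell surface, and the released fragment binds EGFR on the same or a neighbouring cell, which passes the signal to the RAS-ERK cascade. EGF, TGFA and AREG bind EGFR alone among the receptors of the ERBB family, whereas HBEGF, EREG and BTC also bind ERBB4. Several of the ligand genes are themselves transcribed in response to ERK activity, so that the pathway can feed itself. Shedding is a step of the protein and is not read by RNA sequencing, and the values here are levels of messenger RNA. In RNA from whole wells, a change in the number of cells that express a gene and a change in RNA per cell cannot be told apart.

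The wells held 27047358 to 32478887 counts. All 12 kidney epithelial markers examined passed the count filter. Their summed level, as counts scaled by library size (CPM), ranged from 6257 to 7043 CPM in the controls and from 6660 to 6750 CPM in the stretched wells. Fibroblast markers summed to 1.83 to 4.22 CPM in controls and 3.16 to 3.88 CPM after stretch, with 4 of 8 at 0 in every well (COL1A2, COL3A1, LUM and DCN). Endothelial markers summed to 1.54 to 2.30 and 1.33 to 2.37 CPM. Of the leukocyte markers, PTPRC, CD3E and ITGAM were at 0 in every well. None of the markers that could be tested passed the comparison of stretch with control described below.

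Of the 6 ligand genes, 4 were expressed at a level that could be tested (HBEGF, EREG, TGFA and EGF) and 2 were not (AREG and BTC). AREG, which encodes amphiregulin, had 0 counts in all 8 wells. At the depth of the wells, a limit of 3 counts allows AREG a level of up to 0.0931 to 0.111 CPM, which covers counting error only. BTC, the betacellulin gene, had 3 counts in stretch well 3 and 0 in the other wells, so no fold change is given for it. AREG and BTC were removed by the filter on low counts. How reads matching several places in the genome were treated is not given in the sources used here, and a gene with near-identical copies could be undercounted.

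The expressed ligand genes lie on different chromosomes of the dog genome, at positions given by the table and shared with the RefSeq annotation of UU_Cfam_GSD_1.0. HBEGF is on chromosome 2 (34678980 to 34691039, minus strand), with 6 RefSeq transcripts that merge into 6 exon blocks. EREG is on chromosome 13 (63926759 to 63949788, plus strand), with 5 exons. It sits between EPGN, the gene of a further EGFR ligand, and AREG (63996005 to 64007006), with gaps of 46411 and 46216 bases. The neighbours EPGN and AREG had 1 to 9 and 0 counts per well, against 363 to 1455 counts for EREG. TGFA is on chromosome 10 (70213444 to 70290872, minus strand), EGF on chromosome 32 (9723676 to 9817337, minus strand) and BTC on chromosome 15 (64595864 to 64639083, plus strand). The only overlap with another counted gene among these 6 was a transcript inside EGF on the opposite strand, which had 0 counts.

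Levels of different genes were compared per length, as CPM per kilobase of exon. In control wells EGF was highest, at 36.9 ± 3.98 CPM per kilobase (mean ± SD, n = 4). HBEGF followed at 8.02 ± 1.29, EREG at 6.35 ± 3.36 and TGFA at 4.92 ± 0.230 CPM per kilobase. EGF stood above each of the others in all 8 wells. Among the lower genes, HBEGF (6.10 to 8.81 CPM per kilobase in controls) did not overlap TGFA (4.62 to 5.18), whereas EREG, at 3.46 to 10.97, overlapped both and is not placed between them with any certainty.

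In stretch wells the order of the means was the same. EGF was at 37.7 ± 1.85, HBEGF at 13.96 ± 2.28, EREG at 10.2 ± 2.82 and TGFA at 5.30 ± 0.453 CPM per kilobase (n = 4). HBEGF exceeded EREG in 3 of 4 control wells and 4 of 4 stretch wells, but their ranges overlapped in both groups. EREG exceeded TGFA in 2 of 4 control wells and in 4 of 4 stretch wells, where their ranges no longer met. EGF was 4.60 times HBEGF in controls and 2.703 times HBEGF after stretch, as ratios of mean levels per kilobase.

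**Figure D1:**
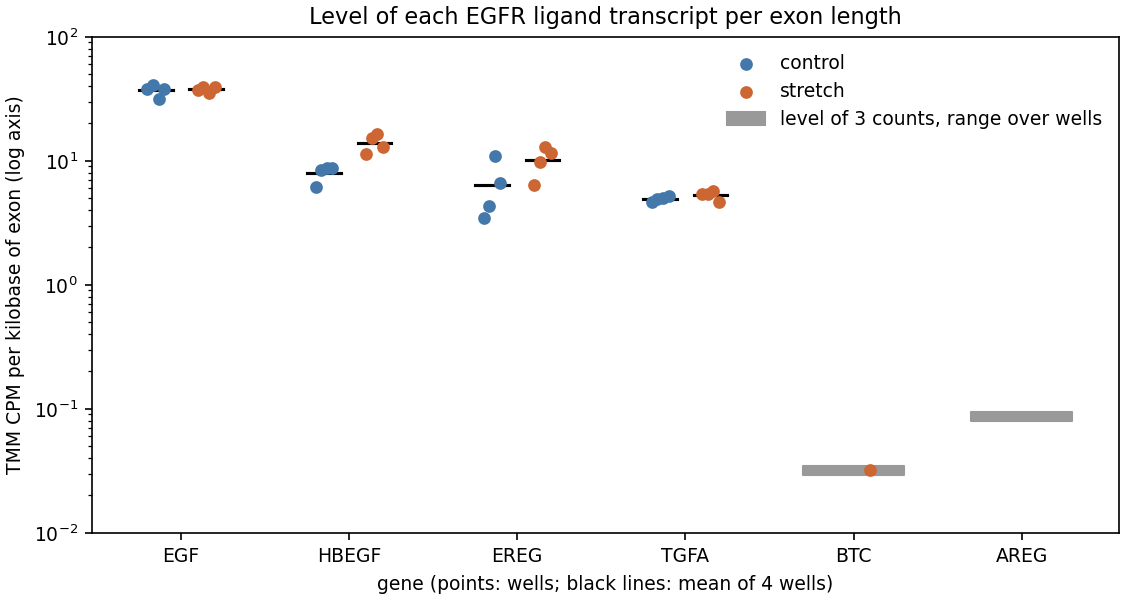
Level of each EGFR ligand transcript in every well, as TMM-normalised CPM per kilobase of exon on a log axis, with control wells in blue, stretch wells in orange and black lines at the mean of 4 wells. Grey bars mark the level of 3 counts. EGF lies near 37 in both groups, HBEGF moves from 6.10 to 8.81 in controls to 11.3 to 16.3 after stretch, BTC has 1 point at 3 counts, and AREG has none.

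HBEGF was the ligand gene that changed most clearly. It encodes heparin-binding EGF-like growth factor, whose membrane precursor is also the receptor for diphtheria toxin. The control wells 1 to 4 had 433, 677, 678 and 734 HBEGF counts, which correspond to 15.9, 21.9, 22.95 and 22.8 CPM. The stretch wells 1 to 4 had 854, 1079, 1239 and 1091 counts, or 29.3, 39.9, 42.5 and 33.9 CPM. Every stretch well lay above every control well, a separation shown in the upward direction by 190 of the 14571 genes tested (1.3%).

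HBEGF rose in every same-numbered pair of wells, by 1.84-fold, 1.82-fold, 1.85-fold and 1.48-fold in pairs 1 to 4. A rise in all 4 pairs was seen in 8.45% of the genes tested. Mean HBEGF expression went from 20.9 ± 3.36 to 36.4 ± 5.93 CPM. The log2 change was 0.80 with a 95% interval of 0.49 to 1.10 when the wells were treated as unpaired. With the replicate number as a block it was 0.80 with an interval of 0.66 to 0.94, or 1.74-fold (1.58-fold to 1.92-fold). The gain from the block was thus in the error and not in the size: the standard error fell from 0.14 to 0.066.

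HBEGF passed the test with the replicate block and not without it (edgeR quasi-likelihood test, adjusted p = 1.8e-05 and 0.188). It ranked 1 of 14571 genes by p with the block and 9 without. With the block 102 genes (0.7%) passed, of which 77 (0.528% of those tested) were higher after stretch. Without the block no gene passed in edgeR (0%), 579 had an unadjusted p under 0.05, HBEGF among them, and limma-voom called 0 as well. DESeq2 without a block called 40 genes (0.275%), HBEGF included (adjusted p = 4.0e-05). A block that only separates replicates 1 and 2 from 3 and 4 called 58 genes (0.398%) and left HBEGF at an adjusted p of 0.0668 in edgeR. Within replicates 1 and 2 its log2 change was 0.86 (edgeR, adjusted p = 0.436), and within replicates 3 and 4 it was 0.74 (adjusted p = 0.00348, where 25 genes or 0.169% passed).

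**Figure D2:**
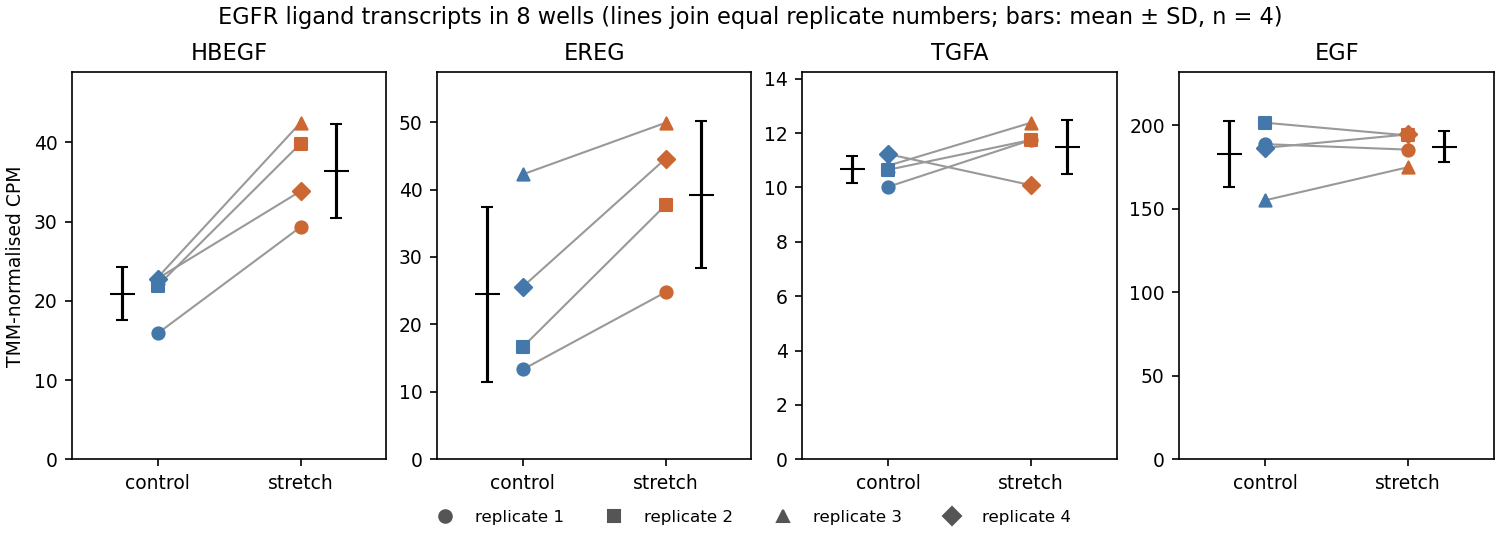
TMM-normalised CPM of HBEGF, EREG, TGFA and EGF in the 4 control wells (blue) and the 4 stretch wells (orange), with a linear axis from 0 for each gene. Grey lines join wells with the same replicate number, and black bars give the mean ± SD. The HBEGF wells separate completely (15.9 to 22.95 against 29.3 to 42.5 CPM), the EREG wells overlap while all 4 lines rise, and TGFA and EGF overlap.

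EREG encodes epiregulin, a ligand of low affinity whose gene is often induced with HBEGF. The control wells 1 to 4 had 363, 515, 1248 and 823 EREG counts, or 13.3, 16.7, 42.2 and 25.6 CPM. The stretch wells 1 to 4 had 722, 1021, 1455 and 1437 counts, or 24.8, 37.7, 49.9 and 44.6 CPM. Control well 3 was above stretch wells 1 and 2, so the groups overlapped.

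EREG was higher after stretch in all 4 pairs, by 1.86-fold, 2.26-fold, 1.18-fold and 1.74-fold. The smallest of these ratios belonged to pair 3, whose control well was the highest of the controls. The control wells spread 3.17-fold from lowest to highest for EREG, against 1.44-fold for HBEGF, 1.30-fold for EGF and 1.12-fold for TGFA. Without control well 3 the unpaired log2 change of EREG was 1.08 (edgeR, adjusted p = 0.805). Mean EREG expression was 24.5 ± 12.9 CPM in controls and 39.2 ± 10.9 CPM after stretch, a difference close to the SD of the wells.

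The log2 change of EREG was 0.68 with a 95% interval of -0.25 to 1.61 without a block, and 0.75 with an interval of 0.32 to 1.19 with the replicate block. EREG did not pass in edgeR in either fit (adjusted p = 0.999 and 0.249), although its unadjusted p with the block was 0.0071. The call for EREG depended on the tool and on pair 3. With the replicate block it passed in DESeq2 (adjusted p = 0.00712, 0.995% of genes called) and in limma-voom (adjusted p = 0.00956, 0.837% called). In edgeR with the block it also passed without pair 3, where its log2 change was 0.95 (adjusted p = 1.1e-08) and 1.27% of genes were called. It passed too when no filter on low counts was used, a fit that called 2.04% of genes. There its adjusted p was 1.5e-29 at a log2 change of 0.76, against 0.249 at 0.75 with the filter, and the cause of this gap was not tested.

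TGFA encodes transforming growth factor alpha, a ligand that polarised epithelia deliver to the basolateral surface. Its control wells had 10.0, 10.6, 10.8 and 11.2 CPM and its stretch wells 11.7, 11.7, 12.4 and 10.1 CPM for replicates 1 to 4. It was higher in 3 of 4 pairs and lower in pair 4, and the groups overlapped. The log2 change with the block was 0.10, with a 95% interval of -0.10 to 0.30 (edgeR, adjusted p = 0.863). These data thus leave room for a change of TGFA from 0.935-fold to 1.23-fold, an interval that does not reach the 1.74-fold of HBEGF.

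EGF, the gene of epidermal growth factor, is strongly transcribed in the distal tubule of the kidney. It had the highest level of the family, at 189, 202, 155 and 187 CPM in control wells 1 to 4 and 186, 194, 175 and 195 CPM in stretch wells 1 to 4. EGF was higher in 2 pairs and lower in 2, and the stretch wells lay within the range of the controls. The log2 change with the block was 0.04, with a 95% interval of -0.05 to 0.13, or 0.965-fold to 1.09-fold (edgeR, adjusted p = 0.899). Control well 3, the highest control well for EREG, was the lowest of the 8 for EGF.

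**Figure D3:**
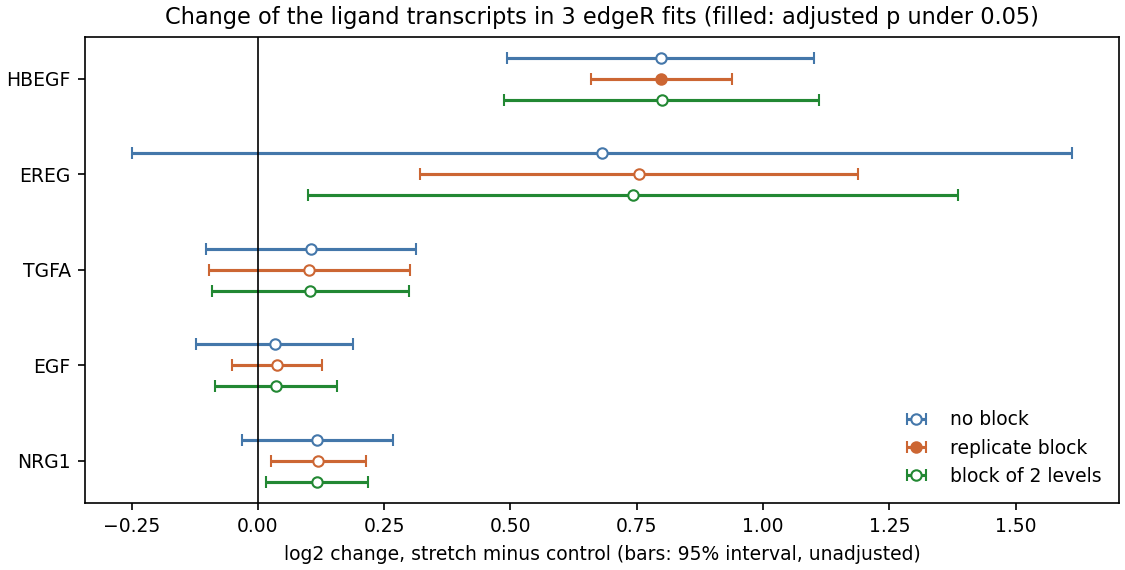
Log2 change (stretch minus control) of 4 EGFR ligand genes and of NRG1 in edgeR fits without a block, with the replicate block and with a block of 2 levels. Bars are unadjusted 95% intervals and a filled point has an adjusted p under 0.05. HBEGF stays near 0.80 in the 3 fits with a narrower interval under the replicate block, EREG has wide intervals, and the intervals of TGFA and EGF hold 0.

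Of the shares of the summed ligand level, only that of HBEGF separated the groups, and it restates the rise of HBEGF. Per kilobase of exon, HBEGF made up 14.2 ± 1.77% of the summed ligand level in controls and 20.7 ± 2.26% after stretch (n = 4 wells each). The stretch wells, at 18.6 to 23.2%, lay above the control wells, at 11.7 to 15.7%. The share of EGF was 65.8 ± 7.44% in controls and 56.4 ± 4.78% after stretch, and its ranges overlapped. EREG held 11.3 ± 5.93% and 15.01 ± 3.43%, and TGFA 8.76 ± 0.227% and 7.91 ± 0.893%. The sum itself ranged from 52.2 to 58.3 CPM per kilobase in control wells and from 60.5 to 70.3 after stretch. These shares are descriptions without a test, and they rest on the exon lengths of the table, which for HBEGF merge 6 transcripts.

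The log2 CPM of HBEGF and EREG were correlated over the 8 wells (Pearson's r 0.81, Spearman's rho 0.83). With the group means removed, r between HBEGF and EREG was 0.74. For HBEGF and TGFA these values were 0.67, 0.74 and 0.56. EREG and EGF ran in opposite directions among the wells, with r = -0.46 over the 8 wells and -0.71 after removing the group means. Wells of a number may share whatever the replicate number stands for, and these correlations are descriptions over 8 wells.

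The genes whose pattern over the 8 wells was most like HBEGF, among 13134 other tested genes with a mean of at least 1 CPM, were CCN1, LIF, OLFM1, TGFBR2 and BCL2L1. Their Pearson r with HBEGF was 0.99, 0.98, 0.97, 0.96 and 0.96, and Spearman rho lay between 0.95 and 0.98. CCN1, which encodes a secreted matricellular protein, had 78.9, 128, 136 and 137 CPM in control wells 1 to 4 and 184, 242, 260 and 192 CPM in stretch wells 1 to 4. LIF, a cytokine of the interleukin-6 family, had 3.23, 4.18, 4.27 and 4.82 CPM in controls and 5.94, 7.61, 7.99 and 5.86 CPM after stretch. As for HBEGF, control well 1 was the lowest well for both genes, and stretch wells 2 and 3 were the highest. With group means removed, r with HBEGF was 0.97 for CCN1 and 0.93 for LIF.

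Of these 5 genes, LIF and TGFBR2, a receptor of transforming growth factor beta, passed with the replicate block (edgeR, log2 change 0.73 and 0.22, adjusted p = 0.0147 and 0.0210). CCN1, OLFM1 and BCL2L1, an inhibitor of apoptosis, did not (log2 changes 0.89, 0.40 and 0.27, adjusted p = 0.149, 0.184 and 0.0674). Over all genes tested, 0.7% passed with the block. The 5 were picked by likeness to HBEGF over all 8 wells, group difference included, which favours their passing. Without the block all 5 missed the threshold. TGFBR2 overlaps a gene on the opposite strand with up to 26 counts per well.

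Among the genes most similar to EREG were PHLDA1 and ZMYND19, with r = 0.99 and 0.98 over the 8 wells. PHLDA1, which encodes a protein with a pleckstrin homology-like domain, had 20.8, 26.9, 54.4 and 41.4 CPM in control wells 1 to 4 and 36.8, 55.9, 60.6 and 54.98 CPM in stretch wells 1 to 4. Control well 3 was the highest control for PHLDA1, as it was for EREG, and stretch well 1 the lowest stretch well for both. PHLDA1 (log2 change 0.59) and ZMYND19 (0.18) did not pass with the block (edgeR, adjusted p = 0.483 and 0.249) or without it. The genes most like TGFA were VPS35L, LOC102151596 and TUFT1 (r = 0.94, 0.94 and 0.93), and those most like EGF were CLEC7A, TMEM135 and ZNF250 (r = 0.99, 0.98 and 0.97). None of these 6 genes was called in either fit, and LOC102151596 lies opposite GOLGA4, so its counts are uncertain.

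**Figure D4:**
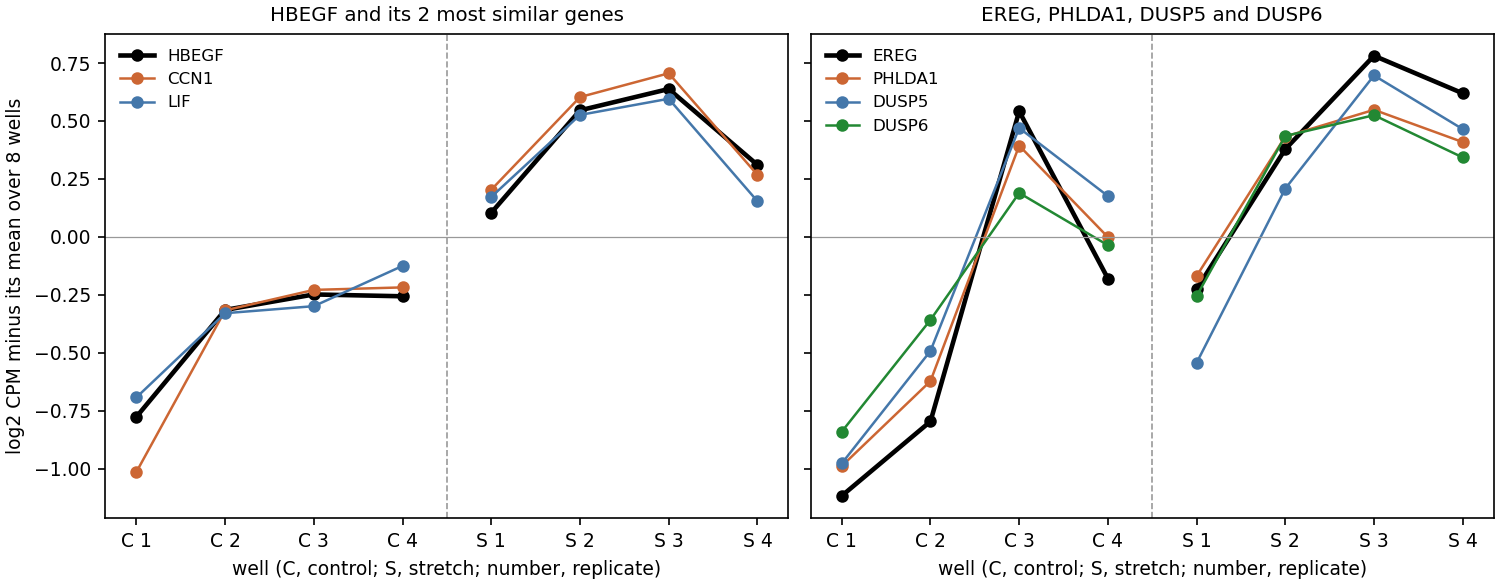
Log2 CPM minus its mean over 8 wells for HBEGF with CCN1 and LIF (left) and for EREG with PHLDA1, DUSP5 and DUSP6 (right). Control wells C 1 to C 4 are left of the dashed line and stretch wells S 1 to S 4 right of it, and lines only join the points of a gene. HBEGF is below its mean in all control wells and above it in all stretch wells, whereas EREG is above its mean in control well 3 and below it in stretch well 1.

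The other genes of the pathway were read from lists chosen with earlier results of these data known, and the calls in this and the next paragraphs are from the fit with the replicate block. Among the other ligands of the ERBB receptors, only NRG1 could be tested. NRG1 encodes neuregulin 1, which binds ERBB3 and ERBB4. It was at 97.2 ± 9.01 CPM in controls and 105 ± 6.79 CPM after stretch, higher in 4 of 4 pairs, with a log2 change of 0.12 that did not pass (adjusted p = 0.362). NRG1 overlaps 5 other genes, 4 of them on the opposite strand, so its count is uncertain. EPGN and NRG2 had 1 to 9 and 5 to 9 counts per well, and NRG3 and NRG4 had 0.

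Of the 4 receptors that the ligands bind or pair with, 1 fell and none rose, where 0.7% of all 14571 genes tested were called in that fit, 77 of the 102 upward. ERBB3, which binds neuregulins and signals through its partners, had 451 ± 39.9 CPM in controls and 397 ± 30.3 CPM after stretch, and was lower in all 4 pairs. Its log2 change was -0.18 (adjusted p = 0.0126), and its adjusted p was 0.0694 when the block had 2 levels. EGFR, ERBB2 and ERBB4 had log2 changes of 0.03, 0.02 and 0.04 and did not pass. Of the 12 tested sheddases and their regulators, 1 passed, against 0.7% of all genes, and the median log2 change was 0.0031 against -0.0022 over all genes tested. It was TIMP3, which encodes a secreted inhibitor of metalloproteases that acts on ADAM17. The TIMP3 level was 26.4 ± 9.31 CPM in controls and 37.1 ± 9.99 CPM after stretch, higher in 4 of 4 pairs, with a log2 change of 0.51 (adjusted p = 0.0022). A block of 2 levels left TIMP3 at an adjusted p of 0.504, and it overlaps SYN3 on the opposite strand, which had at most 19 counts per well. ADAM17 and ADAM10, the main proteases of ligand shedding, had log2 changes of 0.0054 and -0.0026 and did not pass.

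Of 5 proteins that bind, sort or help to cleave ligand precursors, none had a transcript that passed, and the median log2 change was -0.0020. The largest change in size was that of NKD2, which escorts the precursor of TGFA to the basolateral membrane, at -0.17 on 3 to 20 counts per well. Among 8 inhibitors of the receptors, ERRFI1 rose and the other 7 did not pass, with 0.528% of all genes tested called upward. Their median log2 change was 0.05. ERRFI1 binds the kinase domain of EGFR, and its level went from 44.9 ± 5.93 to 68.0 ± 12.4 CPM (log2 change 0.59, adjusted p = 0.00146). With the block of 2 levels the adjusted p of ERRFI1 was 0.0693. None of the 15 adaptors and kinases between receptor and ERK passed, with log2 changes from -0.04 (NRAS) to 0.04 (BRAF) and a median of -0.0077. ADAM12 and ADAM19, listed among the sheddases, were at 0 in every well.

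Genes commonly transcribed downstream of ERK were higher in 14 of 17, with a median log2 change of 0.41, and 3 of the 17 passed, all upward. Over all genes tested 0.528% were called upward and the median log2 change was -0.0022. EGR1, a zinc finger transcription factor, went from 223 ± 23.7 to 299 ± 43.9 CPM (log2 change 0.42, adjusted p = 0.0017). DUSP5 and DUSP6, phosphatases that inactivate ERK, had log2 changes of 0.41 and 0.52 (adjusted p = 0.0297 and 0.0061). With 2 block levels, EGR1, DUSP5 and DUSP6 all missed the threshold (adjusted p = 0.0668, 0.793 and 0.619). Without a block, none of the genes on these lists passed in edgeR, and 5 of the 17 ERK outputs had an unadjusted p under 0.05, as had 579 of all 14571 genes.

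The spread of EREG between wells of a group ran alongside that of several ERK outputs. After removing the group means, 7 of the 17 had an r over 0.9 with EREG over the 8 wells (DUSP5, DUSP6, SPRY1, SPRY4, FOSL1, PHLDA1 and EPHA2), from 0.94 to 0.98. The same held for 5.01% of the 13135 genes of at least 1 CPM. For HBEGF it was 1 of 17, DUSP6 with 0.91, against 0.601% of those genes. EGR1, which passed with the block, had an r of -0.50 with EREG and 0.11 with HBEGF on this measure. This comparison was chosen after the values had been seen.

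**Figure D5:**
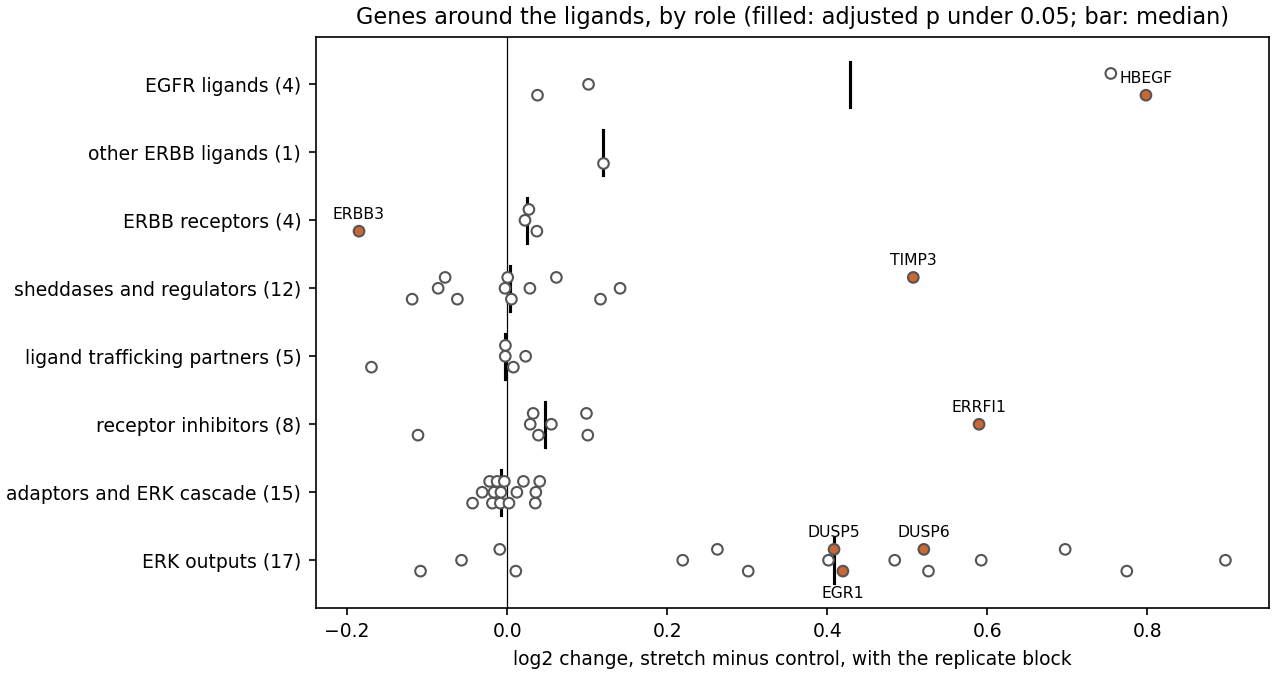
Log2 change (stretch minus control, with the replicate block) of every tested gene on 8 lists arranged by role, with the number tested in brackets, filled points for an adjusted p under 0.05 and a bar at the median of each list. HBEGF, TIMP3, ERRFI1, DUSP5, DUSP6 and EGR1 are filled to the right of 0 and ERBB3 to the left, while the 15 adaptors and kinases lie between -0.04 and 0.04.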

How the data were processed

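RNA was extracted from 8 wells of MDCK GII cells and sequenced from polyA-selected stranded libraries, per the labels' protocols. The deposited table gives, for every gene, the unnormalised count of reads in exons, as the authors produced it. The submitters' processing notes name FastQC 0.11.8, Trim Galore 0.6.5, STAR 2.7.3a, Subread and featureCounts. The genome build, strand setting and treatment of reads with several matches are not given in the sources used here. Of 37952 genes, 37291 matched a RefSeq symbol of UU_Cfam_GSD_1.0, all at the same start and end. Sequences of the ligands were not used here.

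Counts were tested with edgeR 4.0.16 in R 4.3.3 (TMM factors, filterByExpr with a minimum count of 10 and total of 15, robust glmQLFit and glmQLFTest), two-sided, over all 14571 genes that passed the filter. P-values were adjusted by the Benjamini-Hochberg method over all of these, with a threshold of 0.05. Intervals are 95% t intervals from the quasi-likelihood standard error. CPM are TMM-normalised, and log2 CPM for correlations used a prior count of 2. Samples in the same group differed beyond sampling noise (chi-square per degree of freedom from 5.14 to 23.6), and each well was entered as a replicate. This excess does not show that the technical quadruplets named by the labels are independent. Deviations from the group means were correlated between same-numbered wells (r across genes from 0.108 to 0.328, mean 0.199). Wells of different numbers were not compared in this way, so a pairing by number is not shown. In both groups the chi-square was lowest between wells 1 and 2 and between wells 3 and 4. In controls it was 5.14 and 8.03, with 12.6 to 23.6 for the other pairs. After stretch it was 6.25 and 7.78, with 9.46 to 18.6 for the others. Results with the replicate number as a block are printed beside the main ones, some also with a block of 2 levels. The labels do not say what a number stands for. The scripts were tested on simulated data. DESeq2 1.42.0 and limma 3.58.1 were alternatives, with other scalings, filters and omissions of wells.

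The ligand genes, lists and alternatives were chosen with earlier results of these data known. Named genes are every ligand, the 5 genes most correlated with HBEGF and the 3 most correlated with each other tested ligand, and from each list those that passed or else the largest change. EGFR, ERBB2, ERBB4, ADAM10, ADAM17 and BRAF are named for their role, after their values were seen. DUSP4 was not analysed here, and a few genes that the rule or the marker lists cover are not reported here.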

Additional observations from a re-analysis of the deposited data

Results flagged for a closer look

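Each tested ligand gene and NRG1 were examined for a well far from the others of its group, by the ratio of the gap to the range of 4 wells, set against Dixon's critical value. In 1 of 10 groups a well stood apart, and about 5% of such groups would do so by chance. It was HBEGF in control well 1, at 15.9 CPM, with 21.9 to 22.95 CPM in the remaining controls. Without that well the log2 change of HBEGF was 0.69 (edgeR without a block, adjusted p = 0.216). The same well was the lowest control for EREG (13.3 CPM), TGFA (10.0 CPM), CCN1 (78.9 CPM) and LIF (3.23 CPM), and its total of 27208551 counts was within the range of the 8 wells. Why the well is low was not tested.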

How the results depend on the processing

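The direction of HBEGF, EREG and TGFA was upward in all 30 alternatives run for each. For HBEGF the log2 change kept a size of 0.69 to 0.89. It passed in all 12 fits with the replicate block, with 0.80 in edgeR under TMM, DESeq2 size factors, library size only, upper-quartile factors, no count filter or at least 10 counts in every well, 0.80 in DESeq2 and 0.79 in limma-voom. It also passed at 0.80 in DESeq2 without a block and at 0.74 in replicates 3 and 4 alone, which makes 14 of the 30. HBEGF did not pass in the main fit (edgeR, adjusted p = 0.188) or in edgeR without a block under another scaling or filter. Limma-voom without a block, edgeR with the block of 2 levels and edgeR on replicates 1 and 2 alone did not call it (adjusted p = 0.156, 0.0668 and 0.436). Nor did any fit that left out a well. All these fits draw on the same 8 wells and are not independent. Leaving out a well without a block gave log2 changes of 0.69 to 0.89, leaving out a pair with the block 0.77 to 0.88.

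The number of ligand genes that passed was 0 without a block and 1 with it in edgeR, under each scaling and with at least 10 counts in every well. It was 1 in DESeq2 without a block and in replicates 3 and 4 alone, and 2 with the block in DESeq2, in limma-voom and without a count filter, the second being EREG. It was 0 in every fit that left out a well and 1 to 2 when pairs were left out. The cause of these differences was not tested.

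Over all genes, 0 passed in edgeR without a block, 11 without a count filter and 40 in DESeq2. With the replicate block the counts were 102 (TMM), 105 (DESeq2 size factors), 111 (library size), 112 (upper quartile), 448 (no count filter), 97 (at least 10 counts in every well), 145 (DESeq2) and 122 (limma-voom). The block of 2 levels gave 58, replicates 1 and 2 alone 51, and replicates 3 and 4 alone 25. Leaving out a well gave 0 to 12 (12 without control well 3) and leaving out a pair 43 to 186 (43 without pair 1, 186 without pair 3).

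EGF, which never passed, changed sign within replicates 1 and 2 (-0.041), without control well 3 (-0.038) and without pair 3 (-0.0073), with a range over omissions of -0.038 to 0.085. The planned comparison of levels on coding length was not run, because no coding lengths were used here. Depth limits AREG and BTC, whose levels lie at or under 3 counts per well.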

Other observations

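The genes within 100000 bases of each tested ligand gene were looked at after the values had been seen. Around HBEGF, 4 neighbours were tested with the replicate block and none passed. SLC4A9, a member of the bicarbonate transporter family that lies 13120 bases from HBEGF on the opposite strand (chromosome 2, 34704160 to 34717829), had 7 to 19 counts per control well and 26 to 38 per stretch well. Its groups did not overlap in CPM (0.257 to 0.591 against 0.869 to 1.30), an upward separation shown by 1.3% of all genes tested. The log2 change of SLC4A9 was 1.09 ± 0.32 (SE), with an adjusted p of 0.161 with the block and 0.792 without it in edgeR. SLC4A9 overlaps LOC102154811 on the other strand, which had 24 to 73 and 25 to 47 counts in the same groups and a log2 change of -0.11. The other neighbours of HBEGF, PFDN1 and ANKHD1, had log2 changes of -0.03 and -0.01. None of the tested neighbours of EREG, TGFA or EGF passed, among them MTHFD2L beside EREG with a log2 change of -0.07.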
